A study of Mus musculus with 17 samples.

Results

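The autophagy and lysosome genes of mouse skeletal muscle were examined here: the kinases and lipid kinases that start an autophagosome, the enzymes that attach LC3-like proteins to its membrane, those proteins themselves, the receptors that bring cargo to them, and the membrane proteins, enzymes and transcription factors of the lysosome. Membership was set by a list of 38 gene names and not by a cut on a measured value. The list was chosen with earlier results of these data known. Of these, 37 had a probe set with a single gene symbol among the 19938 genes tested. Optn, a cargo receptor, was not analysed here. All 37 lay above the level that cut off the dimmest 30% of genes.

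Autophagy wraps cytoplasm, protein aggregates or organelles in a double membrane, the autophagosome, which fuses with the lysosome, where acid hydrolases break the content down. In skeletal muscle the pathway supplies amino acids during fasting and clears damaged mitochondria. Insulin restrains it through mTORC1, which phosphorylates the ULK1 complex and keeps TFEB in the cytoplasm, and through AKT, which keeps FOXO transcription factors out of the nucleus.

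The samples were total RNA of skeletal muscle from male wildtype C57BL/6N mice aged 5-6 months, hybridised to 1 array each. The 3 groups were STZ,BEZ (n = 5), STZ,SD (n = 5) and Con,SD (n = 7). STZ,BEZ and STZ,SD mice had 65 mg/kg streptozotocin on each of 5 days at 10-16 weeks of age, a toxin that destroys pancreatic beta cells and leaves the animals short of insulin. STZ,BEZ mice then ate chow with bezafibrate, a fibrate that activates PPAR receptors, at 0.25% or 0.5%, for 8 weeks starting 2 weeks after streptozotocin, and STZ,SD mice ate the standard diet. Con,SD mice had mock injections of citrate buffer and the standard diet. The labels do not say which STZ,BEZ mouse ate which strength, and the sources used here do not name the muscle. All values are log2 expression values, so a difference of 1 is a doubling. A gene is called higher or lower where limma, fitted over all 17 arrays and all genes, gave an adjusted p under 0.1.

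The tissue label held: the 10 fast fibre markers averaged between 13.5 and 13.7 on every array, among the highest levels of the table. Arrays differed within groups in ways the groups do not explain. The mean of 8 slow fibre markers lay between 8.98 and 10.7 in STZ,BEZ, 7.30 and 10.3 in STZ,SD, and 7.22 and 9.83 in Con,SD. The 8 include Myh2, which encodes the fast myosin IIa and was the brightest of them (mean 12.0), so this list is not purely slow. Con,SD array 1 carried hepatocyte markers at a mean of 12.0 and testis markers at 9.30, and its correlation with other Con,SD arrays went down to 0.959, against 0.988 or more within the other groups. Hepatocyte marker means over all arrays were 7.42 to 8.14 in STZ,BEZ, 8.00 to 9.19 in STZ,SD and 7.47 to 12.0 in Con,SD, where array 2 stood at 9.88 and array 3 at 9.20. Of 10 such markers, 7 were lower in STZ,BEZ and 1 in STZ,SD than in Con,SD, and their part in the results was not tested. Without Con,SD array 1, the listed genes higher and lower in STZ,SD than in Con,SD, given next, stayed at 9 and 5. Over all genes, that fit moved the counts from 2776 to 2691 higher and from 2366 to 2739 lower. Con,SD arrays 2 and 3 stayed in that fit. Another fit, without Con,SD arrays 1, 3 and 4, kept array 2 and left out array 4, whose hepatocyte mean was the lowest of Con,SD (7.47). In whole tissue, fewer cells of a type and less RNA per cell cannot be told apart.

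Against Con,SD, STZ,SD muscle had 9 of the 37 genes higher and 5 lower, and 23 did not pass the test. That is 37.8% of the genes, where 25.8% of all genes tested were called in this comparison, 13.9% higher and 11.9% lower. All 37 lay above the dimmest 30% of genes. Without those dimmest genes, 34.3% of the other 13956 genes were called, and the 37 still had 9 higher and 5 lower. The largest differences were small in fold terms: Map1lc3a was 1.45-fold higher, Atg4a was 1.43-fold lower and Ctsd was 1.36-fold lower. The higher genes were the initiation kinase genes Ulk1 and Atg13, the membrane carrier Atg9a, Map1lc3a, both transcription factors Tfeb and Tfe3, the lysosomal membrane genes Lamp1 and Lamp2, and the protease gene Ctsl. The lower genes were Becn1, the conjugation genes Atg4a, Atg10 and Atg12, and the protease gene Ctsd. The median difference over the 37 genes was 0.063, beside -0.0095 over all genes and 0.029 over genes without the dimmest 30%.

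Between STZ,BEZ and STZ,SD muscle none of the 37 genes passed the test. limma called 0 of them, where 0.0201% of all genes (4 of 19938) were called, and at an unadjusted p under 0.05 it was also 0, beside 5.69% of all genes. SAM, the method of the study, called 0 of the 37 as well, beside 0.1% of all genes (14 higher and 6 lower of 19938). Differences ran from -0.28 to 0.19, with a median of -0.00063, and the smallest adjusted p was 0.901. The 95% intervals were of unequal width: that of Ctsl reached down to -0.58 and that of Atg10 up to 0.41, while that of Lamp1 ran from -0.12 to 0.089.

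Against Con,SD, STZ,BEZ muscle had 7 of the 37 genes higher and 5 lower. That is 32.4%, where 21.6% of all genes were called, 13.1% higher and 8.45% lower. Without the dimmest 30% of genes, 29.2% of the others were called, and the 37 had 8 higher and 5 lower. The median difference over the 37 genes was 0.049, beside -0.013 over all genes and 0.029 over genes without the dimmest 30%. This comparison and that of STZ,SD against Con,SD share the Con,SD arrays, so each is given below with its own values and they are not independent of each other.

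**Figure D1:**
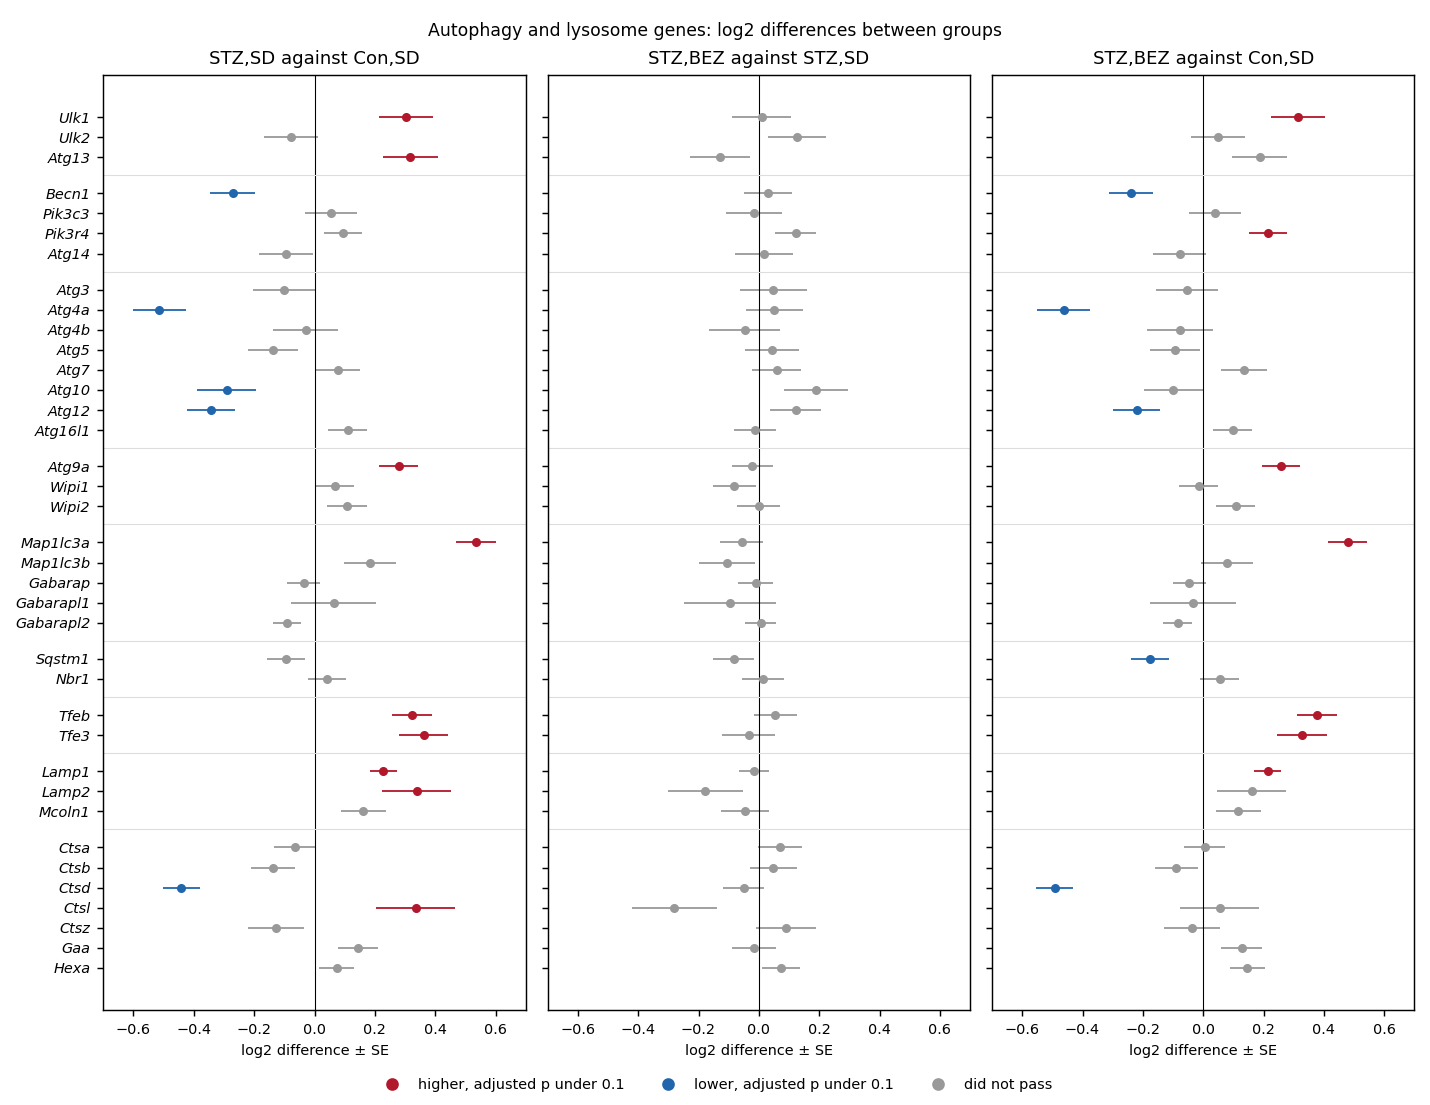
Difference in log2 expression (x axis, ± SE from limma) of the 37 genes in each comparison, ordered by role, with genes called higher in red, called lower in blue and the rest in grey. In the middle panel, STZ,BEZ against STZ,SD, 0 genes were called and differences ran from -0.28 to 0.19.

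The initiation complex starts autophagosome formation, with ULK1 and ULK2 as kinases and ATG13 as their adaptor. Ulk1 stood at 9.56, 9.51, 9.81, 9.51 and 9.60 in STZ,BEZ, at 9.35, 9.95, 9.73, 9.51 and 9.41 in STZ,SD, and between 9.10 and 9.39 in Con,SD (median 9.30). All STZ,BEZ arrays lay above all Con,SD arrays, and 1 STZ,SD array overlapped them. The difference was 0.31 ± 0.090 (SE, adjusted p = 0.0264) for STZ,BEZ and 0.30 ± 0.090 (adjusted p = 0.0249) for STZ,SD, each against Con,SD. Atg13 read 9.71, 9.96, 9.83, 9.94 and 9.91 in STZ,BEZ, 9.87, 10.29, 10.27, 9.70 and 9.87 in STZ,SD, and 9.57 to 9.79 in Con,SD (median 9.72). It was higher in STZ,SD by 0.32 ± 0.092 (adjusted p = 0.0217), led by arrays 2 and 3, while its 0.19 ± 0.092 in STZ,BEZ did not pass (adjusted p = 0.18). Ulk2, the paralogue of Ulk1, differed by 0.05 in STZ,BEZ and by -0.08 in STZ,SD and was not called.

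The lipid kinase complex makes the phosphatidylinositol 3-phosphate that marks the growing membrane, with PIK3C3 as the enzyme, PIK3R4 as its scaffold and BECN1 and ATG14 as partners. Becn1 stood at 8.51, 8.55, 8.64, 8.72 and 8.59 in STZ,BEZ, at 8.54, 8.61, 8.55, 8.59 and 8.55 in STZ,SD, and between 8.53 and 9.02 in Con,SD (median 8.82). Con,SD array 6 was the only one of the 7 control arrays that reached down to the streptozotocin groups. Becn1 was lower by 0.24 ± 0.073 in STZ,BEZ (adjusted p = 0.0352) and by 0.27 ± 0.073 in STZ,SD (adjusted p = 0.0147) than in Con,SD. Pik3r4 read 7.53, 7.68, 7.76, 7.72 and 7.56 in STZ,BEZ, 7.57, 7.43, 7.56, 7.56 and 7.53 in STZ,SD, and 7.25 to 7.60 in Con,SD (median 7.41). It was called in STZ,BEZ alone (0.22 ± 0.063, adjusted p = 0.0288; in STZ,SD 0.09, adjusted p = 0.32), and its difference between STZ,BEZ and STZ,SD did not pass (0.12 ± 0.068, adjusted p = 0.917). The STZ,BEZ calls were lost for Pik3r4 after a second quantile normalization (0.15, adjusted p = 0.108) and for Becn1 without Con,SD arrays 1, 3 and 4 (-0.18, adjusted p = 0.157). Pik3c3 and Atg14 were not called, with differences between -0.09 and 0.05.

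The conjugation genes encode the enzymes that cut LC3-like proteins and couple them to lipid. Of 8 measured, 3 were lower and 0 higher in STZ,SD than in Con,SD, and 2 lower and 0 higher in STZ,BEZ, where 11.9% of all genes were called lower in STZ,SD and 8.45% in STZ,BEZ. Without the dimmest 30% of genes, 1893 of 13956 were lower in STZ,SD and 1306 in STZ,BEZ. Atg4a, a protease that trims and releases LC3-like proteins, stood at 9.11, 9.03, 9.14, 8.89 and 8.81 in STZ,BEZ, at 8.96, 8.79, 8.71, 9.25 and 9.01 in STZ,SD, and between 9.29 and 9.61 in Con,SD (median 9.47). Every array of both streptozotocin groups lay below every Con,SD array. The difference was -0.46 ± 0.088 in STZ,BEZ (adjusted p = 0.00205) and -0.51 ± 0.088 in STZ,SD (adjusted p = 0.000632). A second Atg4a probe set gave -0.44 in STZ,BEZ and -0.50 in STZ,SD.

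Atg12, the ubiquitin-like protein joined to ATG5, read 7.77, 7.76, 7.82, 7.80 and 7.73 in STZ,BEZ, 7.71, 7.43, 7.45, 7.93 and 7.76 in STZ,SD, and 7.87 to 8.19 in Con,SD (median 8.00). The 5 STZ,BEZ arrays lay close together and below all Con,SD arrays, whereas STZ,SD arrays spread widely and 1 of them overlapped Con,SD. It was lower by 0.22 ± 0.078 in STZ,BEZ (adjusted p = 0.0672) and by 0.34 ± 0.078 in STZ,SD (adjusted p = 0.00538). In STZ,BEZ it no longer passed when Con,SD array 5 (-0.19) was left out, or any of STZ,BEZ arrays 1, 2, 4 and 5 (-0.23 to -0.21). Atg10, the enzyme that joins ATG12 to ATG5, stood at 9.00, 8.94, 9.27, 9.03 and 8.81 in STZ,BEZ, at 9.08, 8.57, 8.67, 9.05 and 8.74 in STZ,SD, and between 8.96 and 9.34 in Con,SD (median 9.08). It was called lower in STZ,SD (-0.29 ± 0.098, adjusted p = 0.0461), with arrays 2 and 3 lowest, and not in STZ,BEZ (-0.10 ± 0.098, adjusted p = 0.522). Without STZ,SD array 2 (-0.23) or 3 (-0.25) it was not called. Atg3, Atg4b, Atg5, Atg7 and Atg16l1 did not pass in any comparison, with differences between -0.14 and 0.14.

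ATG9A is the membrane protein whose vesicles seed the autophagosome, and WIPI1 and WIPI2 read the lipid mark made by PIK3C3. Atg9a read 10.27, 10.23, 10.22, 10.16 and 10.36 in STZ,BEZ, 10.19, 10.28, 10.24, 10.23 and 10.40 in STZ,SD, and 9.80 to 10.10 in Con,SD (median 10.07). Both streptozotocin groups lay above Con,SD with no overlap, by 0.26 ± 0.063 in STZ,BEZ (adjusted p = 0.0112) and 0.28 ± 0.063 in STZ,SD (adjusted p = 0.00516). Wipi1 and Wipi2 were not called, with differences from -0.01 to 0.11 against Con,SD.

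The LC3 and GABARAP proteins coat the autophagosome membrane and bind cargo receptors. Of the 5 genes, Map1lc3a alone was called. It stood at 9.87, 10.07, 9.91, 10.00 and 9.97 in STZ,BEZ, at 10.01, 10.09, 10.05, 9.91 and 10.05 in STZ,SD, and between 9.23 and 9.67 in Con,SD (median 9.50). No streptozotocin array overlapped a Con,SD array. The difference was 0.48 ± 0.066 in STZ,BEZ (adjusted p = 0.000176) and 0.53 ± 0.066 in STZ,SD (adjusted p = 4.63e-05). In STZ,SD against Con,SD this was the smallest adjusted p of the 37 genes.

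Map1lc3b, the LC3 form most used as an autophagosome marker, read 11.35, 11.49, 11.42, 11.42 and 11.59 in STZ,BEZ, 11.41, 11.87, 11.71, 11.39 and 11.41 in STZ,SD, and 11.23 to 11.54 in Con,SD (median 11.39). STZ,SD arrays 2 and 3 stood above all others, and the other 3 lay inside the Con,SD range. Its difference did not pass in STZ,BEZ (0.08, adjusted p = 0.575) or STZ,SD (0.18, adjusted p = 0.150). Gabarapl1 showed the same arrays apart: it stood at 9.14, 9.31, 9.46, 9.50 and 9.36 in STZ,BEZ, at 9.47, 9.84, 9.81, 9.16 and 8.99 in STZ,SD, and between 9.04 and 9.83 in Con,SD (median 9.39). The 95% interval of its STZ,SD difference ran from -0.24 to 0.36, the widest of the 37 genes in that comparison.

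Gabarap read 12.27, 12.35, 12.23, 12.27 and 12.35 in STZ,BEZ, 12.27, 12.50, 12.34, 12.20 and 12.22 in STZ,SD, and 12.30 to 12.42 in Con,SD (median 12.34). The groups overlapped, with a difference of -0.05 in STZ,BEZ and -0.04 in STZ,SD against Con,SD. Gabarapl2 read 11.56, 11.62, 11.60, 11.62 and 11.67 in STZ,BEZ, 11.63, 11.61, 11.58, 11.57 and 11.64 in STZ,SD, and 11.58 to 11.83 in Con,SD (median 11.69). Its -0.08 in STZ,BEZ and -0.09 in STZ,SD did not pass, and a second, dimmer probe set for it gave 0.35 in STZ,SD (adjusted p = 0.143), opposite in sign.

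**Figure D2:**
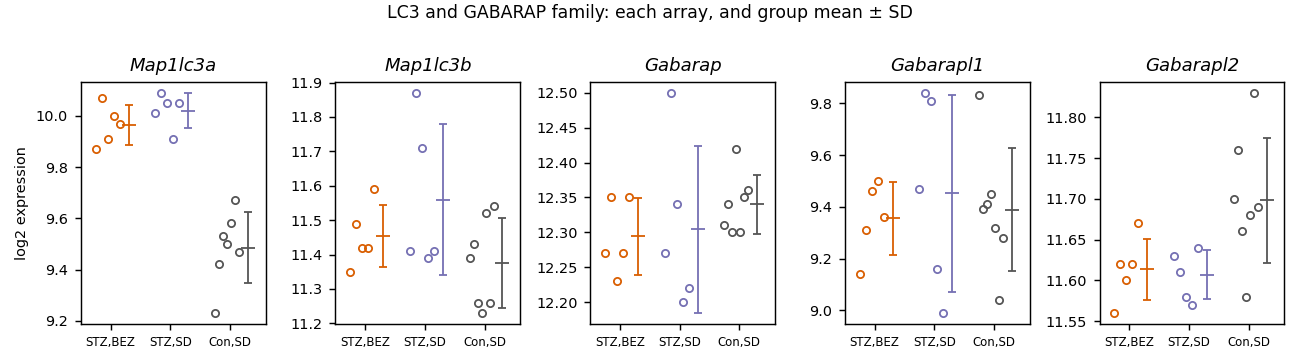
Log2 expression (y axis, a separate scale for each gene) of the 5 LC3 and GABARAP genes in STZ,BEZ, STZ,SD and Con,SD, with 1 open circle per array and the group mean ± SD beside it. Map1lc3a is the panel in which the streptozotocin groups (9.87 to 10.09) do not overlap Con,SD (9.23 to 9.67).

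Cargo receptors link ubiquitin-tagged cargo to LC3. Sqstm1, which encodes p62, stood at 12.17, 12.13, 12.33, 12.14 and 12.20 in STZ,BEZ, at 12.14, 12.48, 12.33, 12.27 and 12.18 in STZ,SD, and between 12.28 and 12.50 in Con,SD (median 12.37). It was lower in STZ,BEZ by 0.18 ± 0.062 (adjusted p = 0.0649), 1 STZ,BEZ array overlapping Con,SD, and its -0.09 in STZ,SD did not pass (adjusted p = 0.315). The difference between STZ,BEZ and STZ,SD did not pass (-0.08 ± 0.067, adjusted p = 0.971). In STZ,BEZ it no longer passed when Con,SD array 3 (-0.17) or 5 (-0.16) was left out, or any of STZ,BEZ arrays 1, 2, 4 and 5 (-0.18 to -0.16). Nbr1 was not called, with 0.05 in STZ,BEZ and 0.04 in STZ,SD.

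TFEB and TFE3 are related transcription factors that switch on lysosomal and autophagy genes by binding CACGTG-containing sites. Tfeb stood at 8.85, 8.89, 8.83, 8.72 and 8.93 in STZ,BEZ, at 8.86, 8.88, 8.73, 8.74 and 8.74 in STZ,SD, and between 8.20 and 8.59 in Con,SD (median 8.49). Tfe3 read 7.98, 8.11, 7.92, 7.72 and 7.78 in STZ,BEZ, 7.99, 7.98, 7.70, 7.93 and 8.08 in STZ,SD, and 7.40 to 7.72 in Con,SD (median 7.57). Tfeb did not overlap Con,SD in either streptozotocin group, and Tfe3 overlapped it on 1 STZ,SD array (the lowest STZ,BEZ value lay above the highest Con,SD value before rounding). Tfeb was higher by 0.38 ± 0.066 in STZ,BEZ (adjusted p = 0.00115) and 0.32 ± 0.066 in STZ,SD (adjusted p = 0.00247). Tfe3 was higher by 0.33 ± 0.082 in STZ,BEZ (adjusted p = 0.0118) and 0.36 ± 0.082 in STZ,SD (adjusted p = 0.00488). mRNA levels do not show where in the cell these proteins were.

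The sequence CACGTG, which reads the same on both strands, was looked for in RefSeq promoter windows (GRCm38.p6) of 250 bases before to 50 after a gene's start. Of the 37 genes, 31 were matched, some of them with several windows, and the promoters of Atg12, Atg16l1, Becn1, Ctsb, Map1lc3a and Pik3c3 were not analysed here. CACGTG stood in 10 of the 37 windows of the matched genes (27%), beside 7.15% of the 32851 windows searched, which do not cover every gene. The extension TCACGTG, searched on both strands and overlapping it, stood in 8 windows (21.6%), beside 3.77%. The forkhead sequence GTAAACA, searched on both strands, stood in 0 of them, beside 3.65%. Genes with and without CACGTG both held higher and lower calls: of the 10 with it, 2 were higher and 1 lower in STZ,SD than in Con,SD, and of the 21 without it, 6 were higher and 2 lower. A match is a sequence, not a measured binding site.

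The windows of Lamp1, Ctsd and Mcoln1 are shown because they hold several CACGTG sites (in capitals) while the genes had different calls against Con,SD: Lamp1 was higher, Ctsd lower and Mcoln1 not called. They lie at chr8:13158911-13159210 (Lamp1, + strand), chr7:142387778-142388077 (Ctsd, - strand) and chr8:3500269-3500568 (Mcoln1, + strand) of GRCm38.p6, and are written 5′ to 3′ along the gene.
Lamp1: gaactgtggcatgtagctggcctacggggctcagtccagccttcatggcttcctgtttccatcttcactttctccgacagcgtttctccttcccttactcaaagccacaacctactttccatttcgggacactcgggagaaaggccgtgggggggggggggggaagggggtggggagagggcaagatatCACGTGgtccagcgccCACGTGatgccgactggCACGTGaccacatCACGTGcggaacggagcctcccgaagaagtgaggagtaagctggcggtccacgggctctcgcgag
Ctsd: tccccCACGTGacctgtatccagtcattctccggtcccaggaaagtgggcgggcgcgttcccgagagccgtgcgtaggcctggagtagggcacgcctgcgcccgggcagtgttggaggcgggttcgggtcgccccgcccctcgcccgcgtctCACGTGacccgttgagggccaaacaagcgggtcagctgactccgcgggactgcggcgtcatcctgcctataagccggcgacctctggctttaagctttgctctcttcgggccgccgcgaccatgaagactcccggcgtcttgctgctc
Mcoln1: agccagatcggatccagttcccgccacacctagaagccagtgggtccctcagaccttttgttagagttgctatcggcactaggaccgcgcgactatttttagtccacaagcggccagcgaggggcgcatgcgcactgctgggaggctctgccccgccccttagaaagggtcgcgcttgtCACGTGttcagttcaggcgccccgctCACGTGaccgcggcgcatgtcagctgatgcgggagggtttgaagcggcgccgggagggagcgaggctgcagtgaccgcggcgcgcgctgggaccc
The Lamp1 window had 4 sites, starting at -61, -45, -28 and -15 from the gene's start, the Ctsd window 2 at -245 and -98, and the Mcoln1 window 2 at -71 and -45. A window of Atg3 and a window of Ctsa, genes not called against Con,SD, also held 2 sites each and are not shown.

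The lysosomal membrane genes encode LAMP1 and LAMP2, the heavily glycosylated proteins that line the membrane, and the calcium channel MCOLN1. Lamp1 read 11.65, 11.71, 11.66, 11.61 and 11.65 in STZ,BEZ, 11.67, 11.74, 11.65, 11.67 and 11.61 in STZ,SD, and 11.37 to 11.53 in Con,SD (median 11.44). Both streptozotocin groups lay above Con,SD with no overlap, by 0.21 ± 0.046 in STZ,BEZ (adjusted p = 0.00469) and 0.23 ± 0.046 in STZ,SD (adjusted p = 0.0022). Lamp2 stood at 10.18, 10.40, 10.14, 10.56 and 10.48 in STZ,BEZ, at 10.75, 10.62, 10.79, 10.18 and 10.31 in STZ,SD, and between 10.05 and 10.58 in Con,SD (median 10.15). The highest Con,SD value was array 1, which also carried liver and testis markers. Lamp2 was called in STZ,SD (0.34 ± 0.11, adjusted p = 0.047) and not in STZ,BEZ (0.16 ± 0.11, adjusted p = 0.364). Without STZ,SD array 1, 2 or 3 (0.27 to 0.32) it was not called. Mcoln1 did not pass in STZ,BEZ (0.12, adjusted p = 0.305) or in STZ,SD (0.16, adjusted p = 0.138).

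The hydrolases break down the content of the lysosome. Ctsd, the aspartic protease cathepsin D, stood at 11.59, 11.54, 11.74, 11.48 and 11.44 in STZ,BEZ, at 11.52, 11.71, 11.64, 11.64 and 11.52 in STZ,SD, and between 11.87 and 12.11 in Con,SD (median 12.08). No streptozotocin array reached a Con,SD array. Ctsd was lower by 0.49 ± 0.062 in STZ,BEZ (adjusted p = 8.91e-05) and by 0.44 ± 0.062 in STZ,SD (adjusted p = 0.00012). Ctsl, the cysteine protease cathepsin L, read 10.14, 10.26, 10.19, 10.47 and 10.59 in STZ,BEZ, 10.58, 10.88, 10.99, 10.23 and 10.36 in STZ,SD, and 10.00 to 10.66 in Con,SD (median 10.28). It ran the other way from Ctsd, called higher in STZ,SD (0.34 ± 0.13, adjusted p = 0.0824) with STZ,SD arrays 2 and 3 highest, and was not called in STZ,BEZ (0.05 ± 0.13, adjusted p = 0.816). Its STZ,SD call was lost without STZ,SD array 1, 2 or 3 or Con,SD array 2, 3, 4, 6 or 7 (0.24 to 0.34).

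The other hydrolase genes were not called in any comparison: Ctsa, Ctsb, Ctsz, Gaa (acid alpha-glucosidase, which digests glycogen) and Hexa differed from Con,SD by between -0.09 and 0.15 in STZ,BEZ and between -0.14 and 0.14 in STZ,SD. Ctsa was the gene whose arrays did not overlap between STZ,BEZ (10.30 to 10.35) and STZ,SD (10.20 to 10.28), beside 1.16% of all genes that did not overlap in this comparison. Its difference of 0.07 ± 0.074 did not pass (adjusted p = 0.989).

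**Figure D3:**
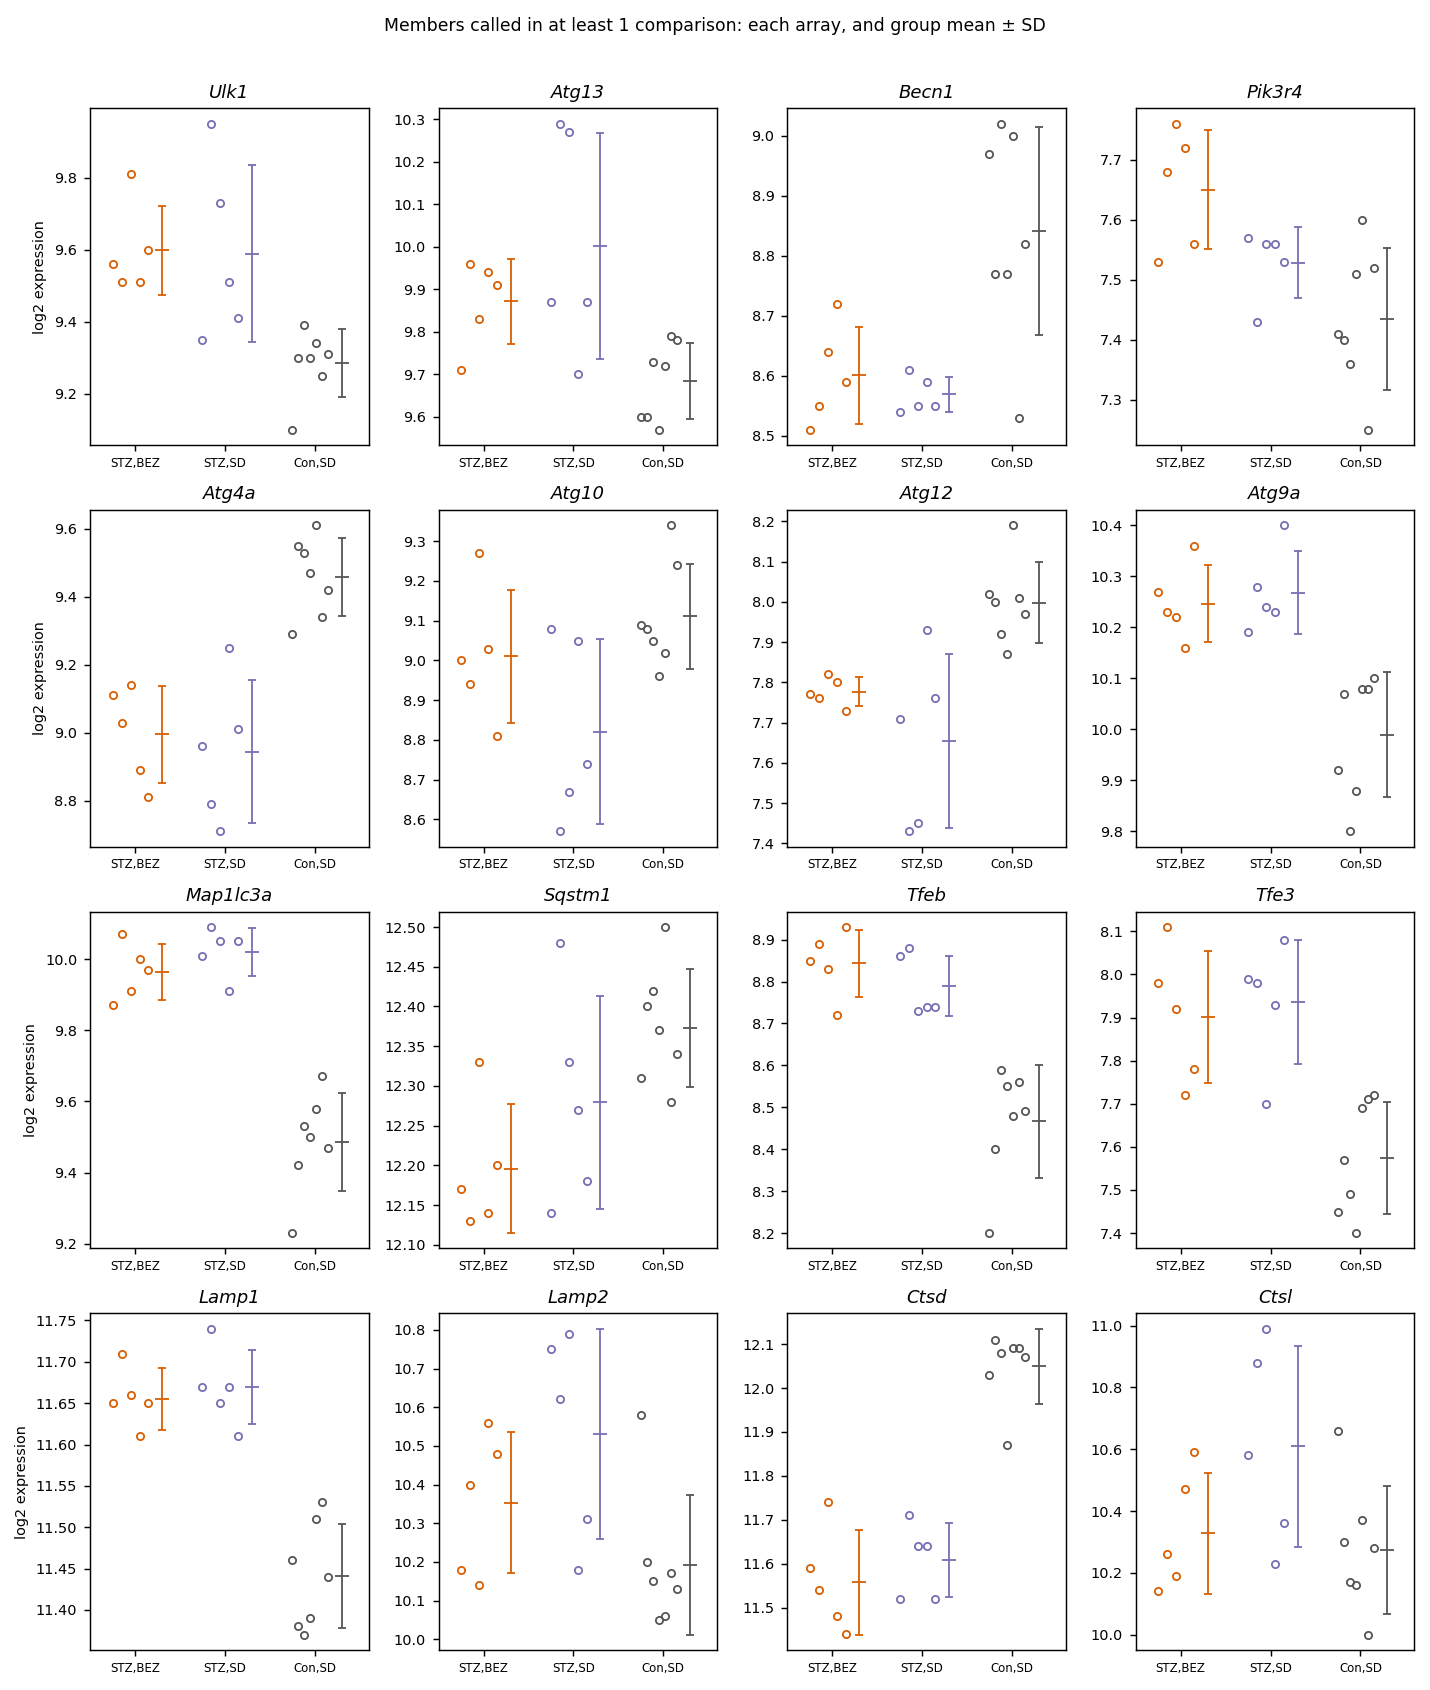
Log2 expression (y axis, a separate scale for each gene) in STZ,BEZ, STZ,SD and Con,SD of the 16 genes called in at least 1 comparison, with 1 open circle per array and the group mean ± SD beside it. Atg4a, Atg9a, Map1lc3a, Tfeb, Lamp1 and Ctsd separate both streptozotocin groups from Con,SD without overlap.

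Non-overlap was counted over all 37 genes. In STZ,SD against Con,SD, 4 genes lay wholly above and 2 wholly below, that is 16.2%, beside 8.3% of all genes (4.87% above and 3.43% below). In STZ,BEZ against Con,SD, 6 genes lay wholly above and 3 wholly below, that is 24.3%, beside 8.51% of all genes (6.01% above and 2.5% below). Ulk1, Tfe3 and Atg12 were the 3 that separated from Con,SD in STZ,BEZ but not in STZ,SD. The 6 genes called against Con,SD in 1 streptozotocin group alone (Atg13, Atg10, Lamp2, Ctsl, Pik3r4 and Sqstm1) differed between STZ,BEZ and STZ,SD by -0.28 to 0.19, with 0 called.

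STZ,SD arrays 2 and 3 stood apart from the other 3 arrays of the group. They were the 2 highest or the 2 lowest of the group for 19 of the 37 genes (51.4%), beside 36.9% of all genes. They were highest for 12 genes, among them Ulk1, Atg13, Map1lc3b, Gabarapl1, Sqstm1 and Ctsl, and lowest for 7, among them Atg4a, Atg10 and Atg12. Their slow fibre marker means were 9.86 and 9.85, close to STZ,SD array 1 (10.3) and above arrays 4 and 5 (7.62 and 7.30). Fibroblast markers were lower on them (8.72 and 8.86) than on the other STZ,SD arrays (9.68 to 9.83), and macrophage markers were 7.14 and 7.03 against 7.42 to 7.80. The part of these markers in the result was not tested.

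Without these 2 arrays, 5 genes were higher and 5 lower in STZ,SD than in Con,SD. The share called over all genes fell as well, from 25.8% to 14%. Genes called higher went from 2776 to 1658 and genes called lower from 2366 to 1138. Ulk1 (0.14), Atg13 (0.13), Lamp2 (0.22), Ctsl (0.12) and Atg10 (-0.15) were no longer called, and Sqstm1 was (-0.18, adjusted p = 0.097). The other 9 calls were kept under all 29 alternatives run: Map1lc3a, Ctsd, Atg4a, Lamp1, Tfeb, Tfe3, Atg9a, Atg12 and Becn1. In STZ,BEZ against Con,SD, 8 of 12 calls were kept under all 29 alternatives, and those of Becn1, Pik3r4, Atg12 and Sqstm1 were lost in some. Not all 29 bear on every comparison: leaving out an array of the third group could change the estimate of spread but not the difference. The share of calls kept under all 29 was not computed over all genes.

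**Figure D4:**
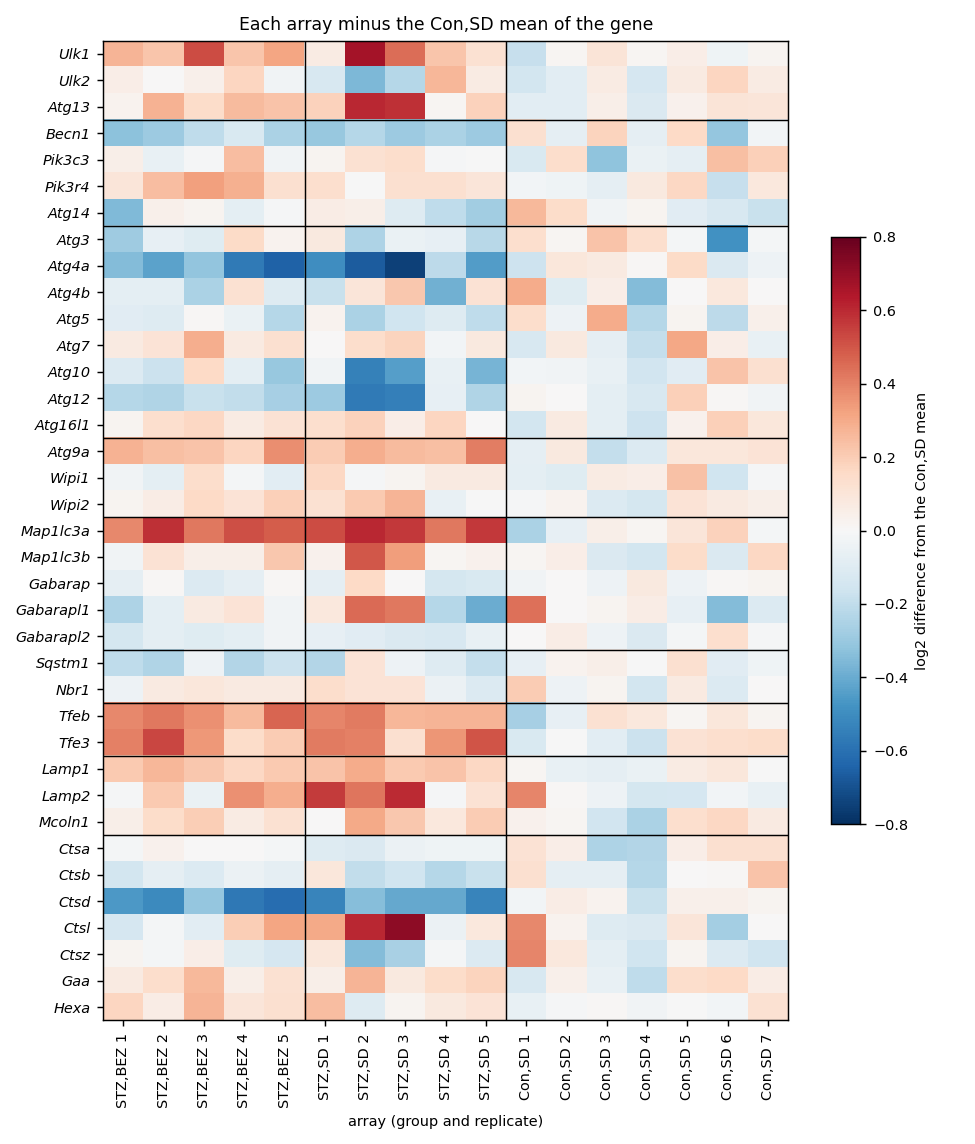
Each array minus the Con,SD mean of the same gene (colour, log2 difference) for the 37 genes (rows, ordered by role) on the 17 arrays (columns, grouped as STZ,BEZ, STZ,SD and Con,SD). STZ,SD columns 2 and 3 carry deeper colours than the other 3 STZ,SD columns for Ulk1, Atg13, Atg12 and Ctsl.

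Macrophages are rich in lysosomes, and the mean of their markers overlapped between the groups: it lay between 7.20 and 7.56 in STZ,BEZ, 7.03 and 7.80 in STZ,SD, and 7.21 and 7.59 in Con,SD. Of 12 markers, 1 was lower in STZ,BEZ and 1 higher in STZ,SD than in Con,SD. Endothelial markers did move: 4 of 7 were higher in each streptozotocin group, with means of 9.06 to 9.22 in STZ,BEZ, 8.97 to 9.18 in STZ,SD and 8.76 to 9.05 in Con,SD. Satellite cell markers were also higher, 3 of 4 in STZ,BEZ and 2 of 4 in STZ,SD, as were nerve and Schwann cell markers, 1 of 2 in STZ,BEZ and 2 of 2 in STZ,SD. In each streptozotocin group 2 of 10 fast fibre markers and 1 of 5 adipocyte markers were lower, and the hepatocyte markers are given above. Over all genes, 13.1% were called higher and 8.45% lower in STZ,BEZ, and 13.9% higher and 11.9% lower in STZ,SD. Their part in the values of the autophagy genes was not tested.

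Further genes of the pathway are given beside the 37. Their lists were chosen by function, with earlier results of these data known. Their counts stand beside 13.1% of all genes called higher and 8.45% lower in STZ,BEZ against Con,SD, and 13.9% higher and 11.9% lower in STZ,SD against Con,SD. Without the dimmest 30% of genes, 2767 of 13956 were higher and 1306 lower in STZ,BEZ, and 2897 higher and 1893 lower in STZ,SD. Of 30 further autophagy genes, 12 were higher and 2 lower in STZ,SD than in Con,SD, and 9 higher and 2 lower in STZ,BEZ. Their median difference was 0.094 in STZ,BEZ and 0.13 in STZ,SD. Epg5, a tether for fusion with the lysosome, was higher by 0.36 in STZ,BEZ (adjusted p = 0.000652) and 0.33 in STZ,SD (adjusted p = 0.000818). Vamp8, a SNARE that fuses autophagosome and lysosome, was lower by 0.33 in STZ,BEZ (adjusted p = 0.0026) and 0.49 in STZ,SD (adjusted p = 7.89e-05). Ambra1, a BECN1 partner, was higher by 0.32 in STZ,BEZ and 0.34 in STZ,SD, and the lipid transfer gene Atg2b was higher by 0.21 in STZ,BEZ and 0.29 in STZ,SD.

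The V-ATPase is the proton pump that acidifies the lysosome. Of its 15 genes measured, 0 were higher and 5 lower in STZ,BEZ than in Con,SD, and 0 higher and 6 lower in STZ,SD, beside 8.45% and 11.9% of all genes called lower in these comparisons. Atp6v1d, a stalk subunit, was lower by 0.70 ± 0.054 in STZ,BEZ (adjusted p = 4.92e-07) and by 0.73 ± 0.054 in STZ,SD (adjusted p = 3.08e-07). Atp6v1c1 was lower by 0.34 in STZ,BEZ and 0.39 in STZ,SD, and the membrane subunit Atp6v0b by 0.18 in STZ,BEZ and 0.33 in STZ,SD. The median over the 15 genes was -0.11 in STZ,BEZ and -0.13 in STZ,SD.

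The further lysosome genes were mixed: of 40, 6 were higher and 3 lower in STZ,BEZ, and 8 higher and 6 lower in STZ,SD, with medians of 0.020 in STZ,BEZ and -0.015 in STZ,SD. Ids, a sulfatase of glycosaminoglycan breakdown, was higher by 0.69 ± 0.092 in STZ,BEZ (adjusted p = 0.000141) and 0.66 ± 0.092 in STZ,SD (adjusted p = 0.000118). Ctsh, another cysteine protease, was lower by 0.71 in STZ,BEZ and 0.59 in STZ,SD, and the thioesterase Ppt1 was lower by 0.36 in STZ,BEZ and 0.45 in STZ,SD. Of 9 mitophagy genes, 0 were called in STZ,BEZ and 1 in STZ,SD, the outer-membrane receptor Bnip3 (0.46 ± 0.13, adjusted p = 0.0198), and their medians were -0.023 in STZ,BEZ and -0.060 in STZ,SD.

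Of 26 upstream regulators, 10 were higher and 1 lower in each streptozotocin group than in Con,SD (over all genes, 13.1% higher and 8.45% lower in STZ,BEZ, 13.9% and 11.9% in STZ,SD), with medians of 0.15 in STZ,BEZ and 0.12 in STZ,SD. Foxo3, a transcription factor that drives autophagy genes in muscle, was higher by 0.62 ± 0.11 in STZ,BEZ (adjusted p = 0.00145) and 0.77 ± 0.11 in STZ,SD (adjusted p = 0.000155). Foxo1 was higher by 0.53 in STZ,BEZ and 0.72 in STZ,SD, and Foxo4 by 0.26 in STZ,BEZ and 0.33 in STZ,SD. Sesn1, an inhibitor of mTORC1 signalling, had the largest difference of the list, 0.92 ± 0.22 in STZ,BEZ (adjusted p = 0.0102) and 1.45 ± 0.22 in STZ,SD (adjusted p = 0.00027). The gene called lower was Rheb, which activates mTORC1, by 0.15 in STZ,BEZ and 0.16 in STZ,SD. In STZ,BEZ against STZ,SD, 0 genes of the 5 lists were called.

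**Figure D5:**
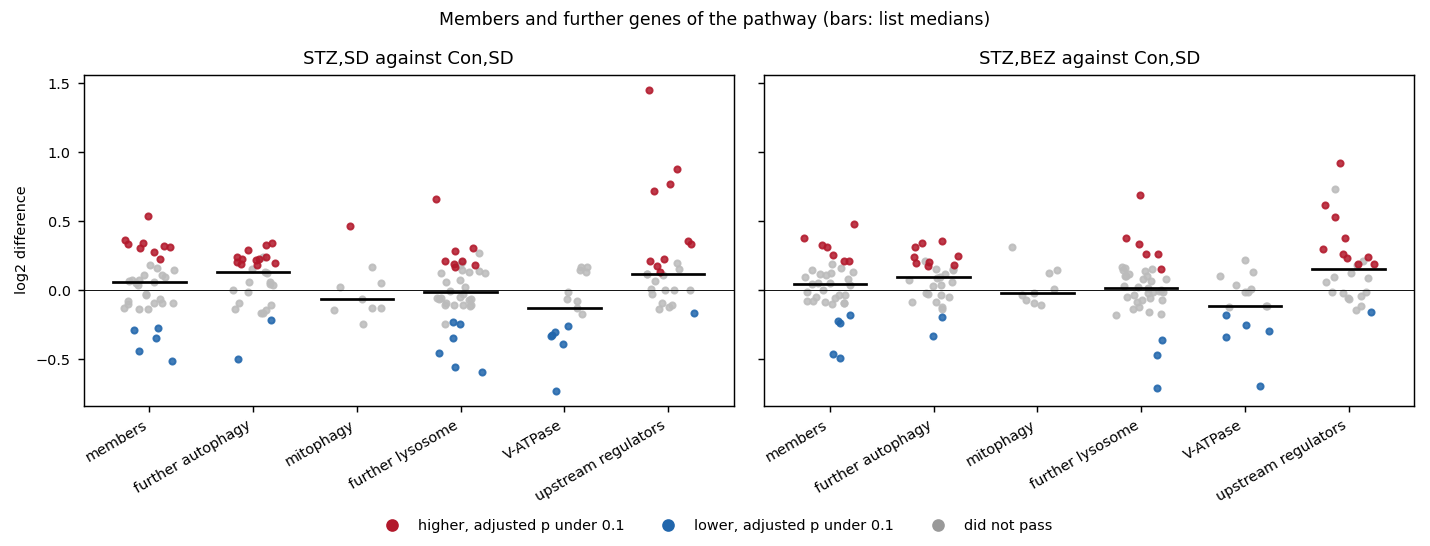
Difference in log2 expression against Con,SD (y axis) of the 37 genes (members) and of the 5 further lists, with 1 point per gene, red for called higher, blue for called lower, grey for the rest, and a bar at each list's median. The V-ATPase list has 0 red points in either panel.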

How the data were processed

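RNA of skeletal muscle from 17 mice was measured on the Mouse Gene 1.0 ST array type of Affymetrix. The authors summarised the probes by RMA and deposited the result on the log2 scale. The software named in the submitters' processing notes is Affymetrix Expression Console 1.2. Values lay between 2.76 and 14.6, and array medians between 6.22 and 6.32. RMA makes the arrays share one distribution of probe intensities before these are summarised, so a common shift of most genes would be hidden. The summarised values need not share one exactly, as the array medians show. Scan dates were not used here, so no batch could be tested, and the number of arrays limits the precision. The labels were followed where the study's methods give another streptozotocin dose, 1 bezafibrate strength and untreated controls.

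Of 35556 probe sets, 21789 had 1 gene symbol, 1621 several and 12146 none in the platform annotation. The brightest probe set stood for each of 19938 genes. Where each probe set lies on the genome was not checked, also for genes with several, such as Atg4a and Gabarapl2. Group means were fitted with limma 3.58.1 in R 4.3.3 over all 17 arrays, with Benjamini-Hochberg adjustment over all genes and a threshold of 0.1, the false discovery rate of 10% of the study. SAM (100 permutations) was an alternative. The script was tested on simulated data. Replicates are separate mice by the labels. Values per array are given for each gene called in any comparison and for the LC3 and GABARAP family. The rule for naming genes of a further list was up to 4 per comparison, with the smallest adjusted p among those called. The members and lists were chosen with earlier results of these data known.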

Additional observations from a re-analysis of the deposited data

Results flagged for a closer look

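Of 111 sets of arrays tested (37 genes in 3 groups), 8 held 1 array far from the others of its group, and chance alone flags about 1 in 20 such sets. In STZ,BEZ, Atg7 stood at 7.94 on array 3, with the other arrays at 7.72 to 7.78, and Nbr1 at 9.51 on array 1, with the others at 9.62 to 9.64. In STZ,SD, Ctsb stood at 11.21 on array 1, with the others at 10.89 to 10.96. In Con,SD, array 1 was far above the others for Lamp2 (10.58, others 10.05 to 10.20) and Ctsz (9.49, others 8.94 to 9.18). Con,SD array 6 was far below for Atg3 (7.82, others 8.29 to 8.53), array 4 for Ctsd (11.87, others 12.03 to 12.11), and array 7 was above for Hexa (9.01, others 8.83 to 8.90). Con,SD array 4 was the lowest of its group for 17 of the 37 genes (45.9%), beside 21.0% of all genes. STZ,BEZ array 3 was the highest of its group for 16 genes (43.2%, beside 25.0% of all genes), and STZ,BEZ array 1 was the lowest for 15 (40.5%, beside 19.4% of all genes) and the highest for 0 (beside 21.8% of all genes).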

How the results depend on the processing

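Each result was recomputed under 29 alternatives, 17 of which left out 1 array, and 0 calls reversed. Differences without a call could change sign, as those of Gabarapl1 (-0.19 to 0.19), Gabarapl2 (-0.13 to 0.13) and Ulk2 (-0.16 to 0.068) in STZ,SD against Con,SD did. Leaving out STZ,SD arrays 2 and 3 together, chosen after seeing the data, gave 5 genes higher in STZ,SD against Con,SD in place of 9. Leaving out single arrays gave 7 to 10, and a second quantile normalization gave 12, which held all 9. Over all 19938 genes, 2776 were higher in the fit reported and 1658 without STZ,SD arrays 2 and 3. That count was 2150 to 2773 without single arrays and 2819 after the second quantile normalization. The genes lower in STZ,BEZ against Con,SD numbered 5 in the fit reported, 3 without Con,SD arrays 1, 3 and 4, and 3 at an adjusted p under 0.05. When single arrays were left out they numbered 3 to 5. They fell to 3 without Con,SD array 5 or STZ,BEZ array 1, 2, 4 or 5, which ended the calls of Atg12 and Sqstm1. Over all 19938 genes, 1684 were lower in the fit reported, 1609 without Con,SD arrays 1, 3 and 4, and 973 at an adjusted p under 0.05. With single arrays left out, 1079 to 2160 of all genes were lower. Ctsl in STZ,SD (adjusted p 0.0824 in the fit reported) lost its call under 13 alternatives, and 6 genes without a call in STZ,SD and 3 in STZ,BEZ gained one under some alternative. Arrays with the same replicate number did not deviate together over all genes (correlations of -0.24 to 0.083). Low correlations cannot exclude that the numbers pair the mice. With the replicate block, 9 genes were higher and 4 lower in STZ,SD against Con,SD, 7 higher and 4 lower in STZ,BEZ against Con,SD, and 0 in STZ,BEZ against STZ,SD. Of the 9, 7 were genes of the fit reported: in STZ,SD the block fit did not call Lamp2 (adjusted p = 0.137), Ctsl (0.247) and Atg10 (0.166) and called Mcoln1 (0.0749) and Gaa (0.081), and in STZ,BEZ it did not call Atg12 (0.133). Over all genes, the block fit called 23.1% in STZ,SD and 19.2% in STZ,BEZ against Con,SD. The fit reported called 25.8% and 21.6%. The cause of these shifts was not tested.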
